A study of Mus musculus with 12 samples.

Results

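The 10 genes described here, Hamp, Hamp2, Trf, Tfr2, Tfrc, Fth1, Ftl1, Slc40a1, Hpx and Cp, handle iron and heme in the liver, and they were taken by name out of 21911 protein-coding genes of the GENCODE M21 annotation (mm10). Every peak of histone H3 acetylated at lysine 9 (H3K9ac) that overlapped the gene body or 5 kb either side of the gene start was assigned to its gene. This gave 28 of 22968 peaks in B6 replicate 1, 19 of 11619 in B6 replicate 2, 20 of 17310 in MSM replicate 1, 20 of 17584 in MSM replicate 2, 24 of 20173 in the F1 BM liver and 20 of 13235 in the F1 MB liver. H3K9ac marks active promoters and was mapped in adult mouse liver by ChIP-seq, the sequencing of immunoprecipitated chromatin. The groups were C57BL/6J (B6, 2 mice), the reference strain; MSM/Ms (MSM, 2 mice), an inbred strain founded from Japanese wild mice; F1 BM, with a B6 mother and an MSM father (1 mouse); and F1 MB, with an MSM mother and a B6 father (1 mouse). The sample titles give the hybrids as BM and MB, read here as mother first. The question put to these genes was whether their acetylated promoter regions differ between B6 and MSM and which form the hybrids carry. Each peak list came from 1 mouse, and the hybrid lists do not separate the maternal and paternal alleles. The lists give no read counts, so the depth behind a peak cannot be read from them and a missing peak may be one too weak to call. The paper reports the read pairs of the libraries in its supplement, and these were not used here. The F1 values have no replicate.

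The liver sets iron supply for the body. Hepcidin, the peptide hormone made from Hamp by hepatocytes, causes ferroportin (Slc40a1), the cellular iron exporter, to be internalised and degraded. Transferrin (Trf) carries iron in plasma, transferrin receptor 1 (Tfrc) takes it into cells, transferrin receptor 2 (Tfr2) takes part in iron sensing by hepatocytes, and the ferritin chains (Fth1, Ftl1) store it. Ceruloplasmin (Cp) oxidises iron as it leaves the cell, and hemopexin (Hpx) is the plasma scavenger of free heme. Hamp2 is a close copy of Hamp in the mouse.

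The upstream sequences of Hamp and Hamp2 are printed because Hamp was the member with peaks in every B6 and F1 liver and in no MSM liver and Hamp2 is its close copy, and that of Fth1 because its peaks did not lie at the annotated gene start. All 3 are the 250 bases before a RefSeq start, 5′ to 3′ on the gene's strand (GRCm38.p6), with capitals for GGCGCC, the core of the BMP response element, and for TTCNNNGAA, the paired STAT half-sites. The stretches are chr7:30944030-30944279 on the minus strand for Hamp, chr7:30924182-30924431 on the minus strand for Hamp2 and chr19:9982396-9982645 on the plus strand for Fth1.
Hamp: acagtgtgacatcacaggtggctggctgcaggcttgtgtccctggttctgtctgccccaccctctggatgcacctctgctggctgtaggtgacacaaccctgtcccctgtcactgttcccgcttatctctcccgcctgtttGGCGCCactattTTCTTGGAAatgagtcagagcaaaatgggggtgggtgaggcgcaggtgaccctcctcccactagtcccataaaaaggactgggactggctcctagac
Hamp2: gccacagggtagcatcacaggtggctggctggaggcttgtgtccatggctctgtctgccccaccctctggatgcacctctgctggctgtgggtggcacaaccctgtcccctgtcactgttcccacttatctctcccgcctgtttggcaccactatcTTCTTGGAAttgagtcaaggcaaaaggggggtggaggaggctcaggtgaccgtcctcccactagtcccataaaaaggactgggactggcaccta
Fth1: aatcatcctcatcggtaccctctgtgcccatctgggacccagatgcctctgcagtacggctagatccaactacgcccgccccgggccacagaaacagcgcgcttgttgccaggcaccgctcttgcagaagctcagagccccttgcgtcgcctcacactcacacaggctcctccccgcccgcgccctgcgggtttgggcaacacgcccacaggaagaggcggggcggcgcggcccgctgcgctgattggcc
Promoter entries were found for 8 of the 10 members. Both strands of the 250 bases were searched for these motifs and also for TATAAA (the TATA box), for CACGTG (an E-box) and for TGACNNNGC (the core of the antioxidant response element). The E-box, the BMP element and the STAT half-sites read the same on either strand. Of 32851 promoter entries, 9.59% hold GGCGCC, 7.02% TTCNNNGAA, 12.4% TATAAA, 6.02% CACGTG and 10.2% TGACNNNGC. In Hamp, GGCGCC lies at -109 to -104 and TTCTTGGAA at -97 to -89 from the RefSeq start, and the matches do not overlap. In Hamp2, TTCTTGGAA lies at -94 to -86 and the letters GGCGCC are not in the window. Among the other members, GGCGCC was found in Tfrc at -89 to -84, TGACNNNGC in Hpx at -95 to -87, and TATAAA before 1 start each of Cp and Fth1. Overlapping TATAAA matches on the 2 strands of Cp began at -27 and -25. The Fth1 match lies at -124 to -119 from the upstream RefSeq start, and the printed Fth1 stretch, before the second start, has none. CACGTG was found in none. A match is a string of letters and not a measured binding site.

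Hamp (ENSMUSG00000050440.8, chr7:30942368-30944032, minus strand) had H3K9ac peaks in both B6 livers and both F1 livers and in neither MSM liver. The length under peaks in its window was 2738 and 342 bp in the B6 livers (replicates 1 and 2), 678 bp in F1 BM and 692 bp in F1 MB, against 0 bp in each MSM library. The B6 mean was 1540 ± 1694 bp (SD, n = 2), so the B6 livers differed from each other more than their mean differed from 0, although the strains did not overlap. A two-sided exact permutation test gave p = 0.33, which is the smallest value that 2 against 2 libraries can give. Of 11579 genes with a peak in any library, 53 (0.458%) had a peak in both B6 and both F1 libraries and in neither MSM library. This pattern was singled out after the values of Hamp had been seen.

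The Hamp peak shared by B6 and the hybrids lay just downstream of the gene start. It ran from 55 to 1927 bases downstream of the gene start in B6 replicate 1, past the end of the gene of 1665 bp, and from 123 to 464 in B6 replicate 2. In the hybrids it ran from 25 to 437 in F1 BM and from 128 to 597 in F1 MB. Its summit lay 281, 271, 233 and 378 bases downstream of the start in these 4 libraries, inside the gene. The fold enrichment, the ratio of signal over the background of the peak caller, was 7.95 in B6 replicate 1, 5.10 in B6 replicate 2, 4.42 in F1 BM and 5.51 in F1 MB. These folds stood at or above 77.9%, 64.7%, 76.7% and 69.2% of the peaks of their own lists. Further peaks were found upstream in B6 replicate 1 (from -865 to -252 and from -2117 to -1867) and in F1 BM (from -494 to -230), and a second one inside the gene in F1 MB (from 793 to 1014). The peak from -2117 to -1867 (251 bp) also overlaps an annotated UTR of Usf2, and all peak regions of Hamp and Hamp2 lie in an intron of the gene model Gm44662, so these peaks cannot be assigned to Hamp or Hamp2 alone. The upstream peaks of B6 replicate 1 and F1 BM overlapped, and their region lay further upstream than the 2 motif matches marked in the Hamp sequence, which were under no peak of any library.

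Of the genes on either side of Hamp, Hamp2 also had no MSM peak, and the start of Usf2, a transcription factor gene 12771 bp upstream, had one in every library, and its fold was 13.0 and 11.7 in MSM, 16.3 and 7.62 in B6, 4.92 in F1 BM and 15.7 in the F1 MB liver. The Hamp pattern changed with list size, and the part of list size in the missing MSM peak was not tested beyond these settings. With the same number of peaks kept in every library, Hamp retained 1873 and 342 bp in B6 and 692 bp in F1 MB but 0 bp in F1 BM, and with the same covered length it retained 342 bp in B6 replicate 2 and 470 bp in F1 MB only. MSM was at 0 bp under both. The part that differences between MSM and the B6 reference sequence play in read mapping at Hamp was not tested. In whole liver, fewer cells carrying the mark and less mark per cell cannot be told apart.

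Hamp2 (ENSMUSG00000056978.8, chr7:30922372-30924681, minus strand) lies 19351 bp from Hamp, start to start. It had peaks in B6 replicate 1 (725 bp) and in F1 MB (292 bp) and 0 bp in B6 replicate 2, both MSM libraries and F1 BM, so the strains overlapped (exact permutation p = 1.0). The leading peak began 551 bases downstream of the GENCODE start in B6 replicate 1 and 533 in F1 MB, just inside the RefSeq start, which is 500 bases downstream. Its fold enrichment was 5.96 and 4.93. The printed upstream stretches of the pair were identical at 227 of 247 aligned bases (91.9%). From the RefSeq start to the gene end, 1587 of 1661 aligned bases (95.5%) were identical, so reads can be shared between the genes. These stretches are 1662 bases long in Hamp and 1810 in Hamp2, and bases opposite gaps were not counted. Of all stretches of 50 bases (the read length) in the Hamp peak region at the start, 74.4% occur once in the genome, and 65.4% in the next region upstream. In the Hamp2 regions it was 87.1% for the leading peak and 36.2% for the second, and over the whole gene windows 60.2% for Hamp and 51.8% for Hamp2. How the authors placed reads with several matches is not given in the sources used here, and Hamp and Hamp2 peaks are to be read as uncertain to that extent.

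**Figure D1:**
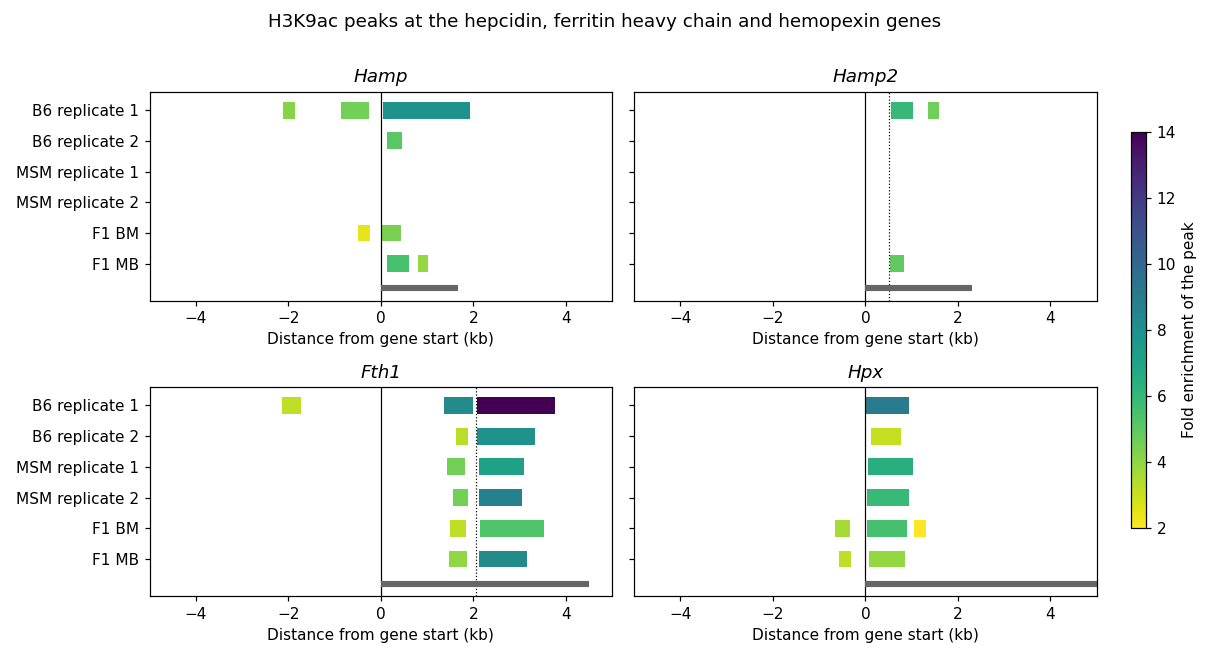
H3K9ac peaks around 4 members in each of the 6 libraries. The x axis is the distance from the GENCODE gene start in kb (positive is downstream), bars are peaks coloured by fold enrichment, the grey line is the gene, and the dotted lines mark the RefSeq start of Hamp2 (500 bases downstream) and the second start of Fth1 (2048 bases downstream). Hamp has no bar in the MSM rows, every row has Fth1 bars on both sides of the second start, B6 replicate 1 has a further one upstream of the gene, and the upstream bar of Hpx is present in the F1 rows only.

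By the rule of smallest distance in covered length over the 6 libraries, the genes most like Hamp were Fam25c (439 bp), Ldlrad4 (603 bp) and Scd1 (692 bp), the last encoding a fatty acid desaturase. Scd1 had 2114 and 392 bp in B6, 0 bp in both MSM libraries, 390 bp in F1 BM and 628 bp in F1 MB. Fam25c also had 0 bp in both MSM libraries, whereas Ldlrad4 had 554 bp in MSM replicate 2.

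Across all members, 7 of 10 had a peak within 1 kb of the gene start in all 6 libraries, against 23.6% of all protein-coding genes. The 3 others were Hamp, Hamp2 and Fth1. The count was 6 with the same covered length in every library and 8 with a start window of 2 kb. It was 7 with the same number of peaks, a −log10 q of at least 3, a window of 500 bp or any 1 parental library left out. The peaks of the 6 lists merged into 26 regions in the member windows, of which 11 were present in all 6 libraries and 6 in a single library, 5 of them in B6 replicate 1, the longest list. Over the genome 6914 of 27334 regions were in all 6 libraries and 8371 in a single one.

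Transferrin and its receptors were acetylated at their starts in every liver. Trf (ENSMUSG00000032554.15, chr9:103204001-103230444, minus strand) had folds at the start of 12.5 and 7.51 in B6, 11.6 and 9.58 in MSM, 7.57 in F1 BM and 7.92 in the F1 MB liver. The strain means, 10.01 ± 3.53 for B6 and 10.6 ± 1.45 for MSM (SD, n = 2 livers per strain), lay within the spread of the replicates (exact permutation p = 1.0). The acetylated domain at its start, made by joining peaks up to 500 bp apart, was 4516 and 3834 bp wide in B6 and 3494 and 3319 bp in MSM. The widths did not overlap between strains, with means of 4175 ± 482 and 3407 ± 124 bp (exact permutation p = 0.33, the smallest possible). Trf was 1 of 7 members with B6 wider, against 16.6% of 5579 genes, and none of the 7 was wider in MSM, against 5.47%, so this count is near the background. The F1 livers did not share 1 form, with 4436 bp in F1 BM and 2730 bp in F1 MB. Trf also had an upstream peak between -4188 and -3814 in all 6 libraries, with folds of 7.60 and 5.98 in B6, 4.06 and 6.18 in MSM, 3.55 in F1 BM and 6.48 in F1 MB. A peak region from -778 to 25 was present in all libraries except MSM replicate 1. The main Trf region also overlaps the gene model Gm20425, and the 2 cannot be told apart in these lists.

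Tfr2 (ENSMUSG00000029716.13, chr5:137569840-137587481, plus strand) had a compact domain just downstream of its start. Its width was 1473 and 1387 bp in B6, 1531 and 1342 bp in MSM, 1485 bp in F1 BM and 1365 bp in F1 MB, and the strains overlapped. The folds varied more, at 9.70 and 7.25 in B6, 4.49 and 9.42 in MSM, 6.83 in F1 BM and 6.07 in the F1 MB liver. Whether the libraries of the strains overlapped depended on the window. The value of MSM replicate 2 came from a second peak, from 886 to 1496, and its peak next to the start, from 155 to 666, had a fold of 3.21. With only peaks within 500 bp of the start, both MSM livers (4.49 and 3.21) were below both B6 livers (9.70 and 7.25), which made Tfr2 1 of 7 members in that order, against 11.2% of 5186 genes. The limma difference went from -0.32 to -1.1 (log2), still not called. Tfrc (ENSMUSG00000022797.16, chr16:32608920-32632794, plus strand) had 805 and 601 bp under its peak in B6, 791 and 1292 bp in MSM, 1215 bp in F1 BM and 736 bp in F1 MB. MSM replicate 2 and F1 BM had the widest Tfrc peaks and B6 replicate 2 the narrowest, and the strains overlapped (exact permutation p = 0.667). Its fold was 6.29 and 5.31 in B6, 5.75 and 9.11 in MSM, 5.55 in F1 BM and 6.06 in F1 MB, again with MSM replicate 2 apart from the rest.

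The ferritin heavy chain gene was marked at its second start. Fth1 (ENSMUSG00000024661.7, chr19:9980598-9985098, plus strand) had no peak within 1 kb of the annotated gene start in any library, and 2 peak regions in every library further downstream, from 1357 to 1996 and from 2083 to 3769. The start at base 9982646, the start of another annotated Fth1 transcript, lies 2048 bases downstream, in the gap between both regions. Within 1 kb of it, the highest fold was 13.97 and 7.93 in B6, 7.18 and 8.77 in MSM, 5.29 in F1 BM and 8.20 in the F1 MB liver. The CpG count over 250 bases before and 50 after a start was 27 at this start and 4 at the upstream one, against a median of 7 over all promoter entries. The covered length at Fth1 was 2742 and 1516 bp in B6, 1361 and 1246 bp in MSM, 1740 bp in F1 BM and 1412 bp in F1 MB. Both B6 livers exceeded both MSM livers, with means of 2129 ± 867 and 1304 ± 81.3 bp, a difference (MSM minus B6) of -826 bp against a pooled SD of 616 bp (exact permutation p = 0.33, the smallest possible). The highest value was that of B6 replicate 1, which alone had a further peak from -2145 to -1731 (415 bp, fold 3.18), and B6 replicate 2 lay closer to the MSM libraries than to it.

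The ferritin mRNAs carry the iron-responsive element, a stem-loop in the 5′ UTR through which iron regulatory proteins block translation. The elements are shown for the 2 ferritin genes because they place the acetylated regions relative to the transcript. They are given 5′ to 3′ as read from the GRCm38.p6 genome, with the loop in capitals, at chr19:9982733-9982760 on the plus strand (Fth1) and chr7:45459779-45459806 on the minus strand (Ftl1).
Fth1: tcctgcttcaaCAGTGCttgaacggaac
Ftl1: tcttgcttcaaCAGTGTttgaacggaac
The Fth1 element lay under the downstream peak for all 28 bases in 5 libraries and for 25 bases in F1 BM. The Ftl1 element lay at the edge of the peak, with 13 bases covered in B6 replicate 1, 6 in MSM replicate 1 and 0 in the other 4 libraries.

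The ferritin light chain gene Ftl1 (ENSMUSG00000050708.16, chr7:45457944-45459884, minus strand) was flanked by peaks on both sides of its start in all 6 libraries, from -1542 to -83 and from 93 to 2330. Its fold at the start was 12.3 and 6.87 in B6, 13.1 and 9.44 in MSM, 7.01 in F1 BM and 5.13 in the F1 MB liver. The covered length was 4061 and 3013 bp in B6, 3089 and 2886 bp in MSM, 3435 bp in F1 BM and 3372 bp in F1 MB, so the strains overlapped in both measures, and the F1 livers were within the B6 range in length but F1 MB was below it in fold. Of the 50-base stretches in the region over the Ftl1 gene, 77.1% occur once in the genome, and the gene models Gm10252 and Gm22133 overlap the peaks, so part of this signal cannot be assigned to Ftl1 alone.

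The exporter gene Slc40a1 (ENSMUSG00000025993.10, chr1:45908068-45926523, minus strand) had covered lengths of 2532 and 1710 bp in B6, 2360 and 2812 bp in MSM, 2803 bp in F1 BM and 2100 bp in F1 MB. B6 replicate 2, with the shortest list, was the lowest and the strains overlapped (exact permutation p = 0.667). Its fold was 9.24 and 6.56 in B6, 9.92 and 9.09 in MSM, 4.98 in F1 BM and 8.43 in the F1 MB liver. The ferroxidase gene Cp (ENSMUSG00000003617.16, chr3:19957054-20009145, plus strand) had the longest covered length of the members in every library, at 6022 and 4964 bp in B6, 5137 and 3864 bp in MSM, 6040 bp in F1 BM and 4271 bp in F1 MB. All of its peaks lay between -394 and 6506 from the start of a gene of 52092 bp. Its folds, 11.8 and 9.89 in B6, 11.7 and 7.86 in MSM, 8.20 in F1 BM and 8.66 in F1 MB, overlapped between strains. An intronic region of Cp from 6055 to 6506 bases downstream had a peak in both B6 libraries (folds of 4.16 and 3.46) and in F1 BM (3.56), and none in MSM or F1 MB.

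Hemopexin showed an upstream peak in the hybrids. Hpx (ENSMUSG00000030895.9, chr7:105591613-105600137, minus strand) had a peak beginning between 14 and 128 bases downstream of its start in all libraries, with folds of 9.01 and 3.05 in B6, 6.41 and 5.90 in MSM, 5.53 in F1 BM and 3.92 in the F1 MB liver. The B6 livers gave the highest and the lowest fold, so the spread within B6 held the whole MSM range. An additional region from -659 to -318, between genes, had a peak in F1 BM (from -659 to -327, fold 3.60) and F1 MB (from -574 to -318, fold 3.19) and in none of the 4 parental libraries. Of 27334 regions, 73 (0.267%) were of this kind, and among the 26 member regions it was 1. A count of this pattern had not been planned, so the share is given as background and is no test. The F1 peaks stood at or above 57.7% of the F1 BM list and 9.97% of the F1 MB list.

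**Figure D2:**
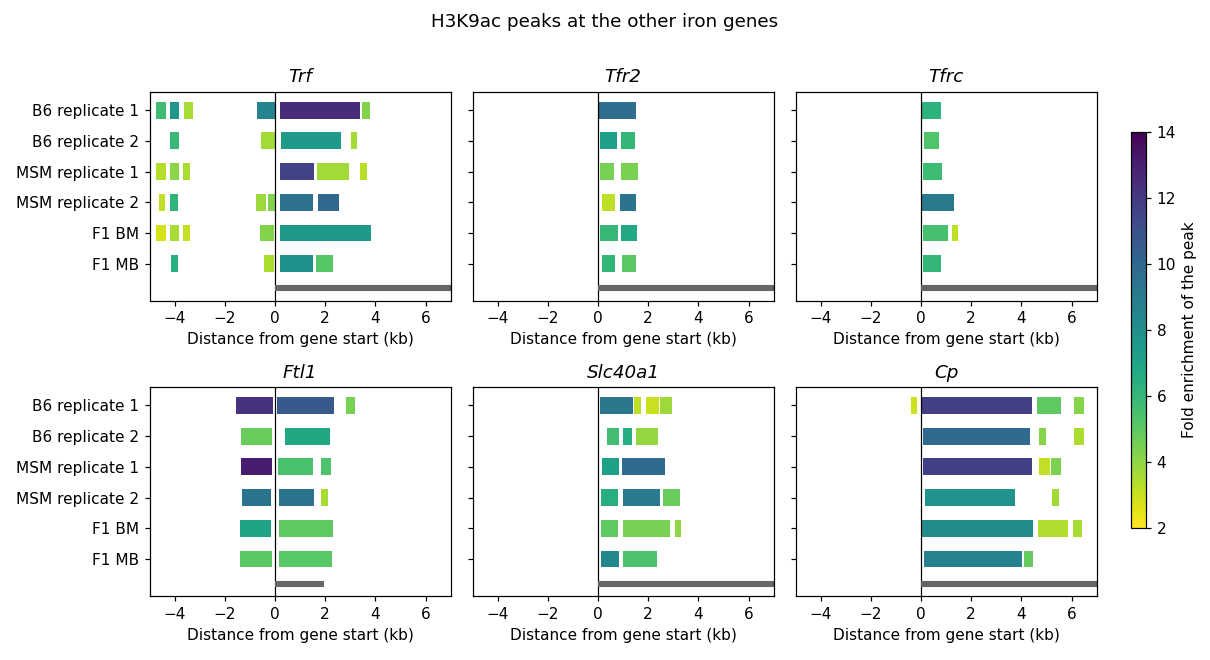
H3K9ac peaks around the other 6 members, drawn as in the map of Hamp, Hamp2, Fth1 and Hpx, over a stretch from 5 kb upstream to beyond the last peak. Each gene has peaks at its start in every library, Cp has the longest stretch of peaks, and the most downstream bars of Cp (from 6055 bases) are in the B6 and F1 BM rows.

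In covered length, both B6 livers exceeded both MSM livers for 2 of 10 members, Hamp and Fth1, against 11.6% of 11446 genes. The reverse order was seen for none of the 10, against 4.97%. With a single library left out, the shares over all genes moved as well. Without B6 replicate 2, 7 of 10 members and 84.2% of genes were higher in B6, and 0 members and 5.03% of genes higher in MSM. Without B6 replicate 1, 2 of 9 members and 13.2% of genes were higher in B6, and 3 members and 61.2% of genes higher in MSM. Without MSM replicate 1 it was 6 of 10 members beside 17.9% in B6 and 2 beside 10.7% in MSM, and without MSM replicate 2 it was 2 beside 18.3% and 1 beside 10.2%. The lists differed in their total length under peaks. B6 replicate 1 had 16023662 bp in all, B6 replicate 2 had 6275842 bp, and the MSM libraries had 9663569 and 9685544 bp. After each library was centred on its median over the genes fitted (log2 scale), Fth1 was higher in both B6 livers (0.81 and 1.11 in B6, 0.47 and 0.33 in MSM), 1 of 8 members against 20.5% of genes. Hpx was higher in both MSM livers (-0.76 and -0.14 in B6, -0.01 and -0.13 in MSM), 1 of 8 against 20.4%, though its nearer libraries were almost equal. In centred fold at the start, no member of 7 was higher in both B6 livers (18.6% of genes), and Ftl1 and Slc40a1, 2 of 7, were higher in both MSM livers (19.0% of genes). Counts of 1 or 2 members lie near these backgrounds and are no result about the members. Of the larger counts higher in B6, 6 of 10 without MSM replicate 1 stood above its background of 17.9%. The 7 of 10 without B6 replicate 2 stood below its background of 84.2%. Each rests on 1 library of a strain, and neither was tested.

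**Figure D3:**
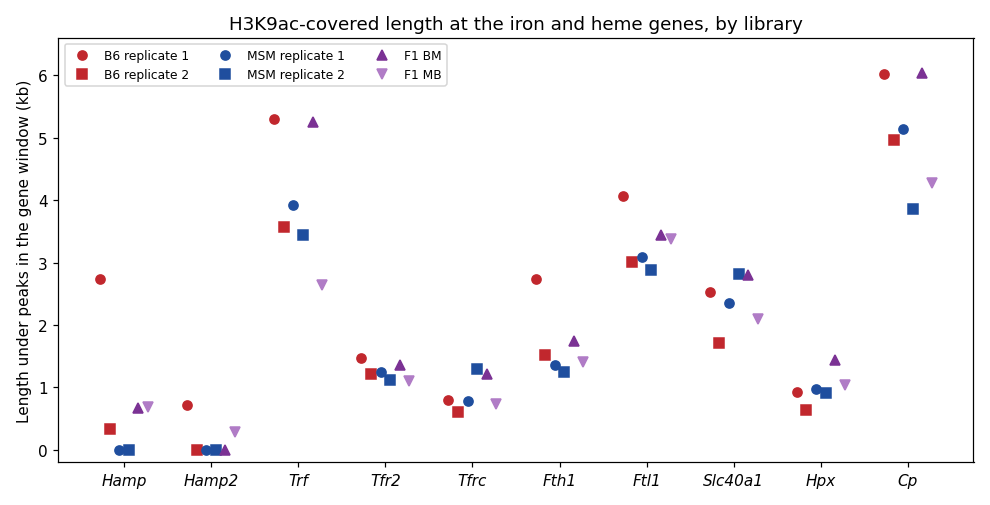
Length under H3K9ac peaks in each gene window (y axis, kb) for the 10 members, 1 point per library (B6 red, MSM blue, F1 purple). MSM is at 0 for Hamp and Hamp2, both B6 points lie above both MSM points for Hamp and Fth1, and B6 replicate 1 and F1 BM tend to the longest values.

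A limma fit of MSM minus B6 called none of the members. For fold enrichment at the start, 7 members entered the fit (Hamp and Hamp2 lack MSM peaks and Fth1 lacks a peak at the gene start), and 0 of 5579 genes (0.0%) passed an adjusted p of 0.05, while 429 (7.69%) had an unadjusted p under 0.05, none of them a member. The median difference of the 7 was 0.27 on the log2 scale, against 0.01 for all genes. Tfrc had 0.37 ± 0.34 (SE, limma adjusted p = 0.84), which ranged from 0.046 without MSM replicate 2 and 0.093 without B6 replicate 1 to 0.69 without MSM replicate 1, with 0.64 without B6 replicate 2. Slc40a1 had 0.33 ± 0.30 (limma adjusted p = 0.84), with a range of 0.18 (without B6 replicate 1) to 0.48 (without B6 replicate 2) and -0.055 with a window of 500 bp. For covered length, 8 members were fitted and 31 of 6706 genes (0.462%) were called, 17 of them higher in B6 and 14 higher in MSM, a count that fell to 0 without either B6 library, while that for fold rose to 18 without MSM replicate 1 and 3 without MSM replicate 2. No member had an unadjusted p under 0.05, beside 771 of all genes fitted (11.5%), and the members' median was -0.12 against 0.01 for all genes. Tfrc had 0.62 ± 0.42 (limma adjusted p = 0.66) and Fth1 -0.57 ± 0.31 (limma adjusted p = 0.54), so neither was distinguishable from the replicate error. The Tfrc value was 0.25 without B6 replicate 1, 0.27 without MSM replicate 2, 0.985 without B6 replicate 2 and 0.97 without MSM replicate 1, and that of Fth1 was -0.17 with the same covered length in every library.

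**Figure D4:**
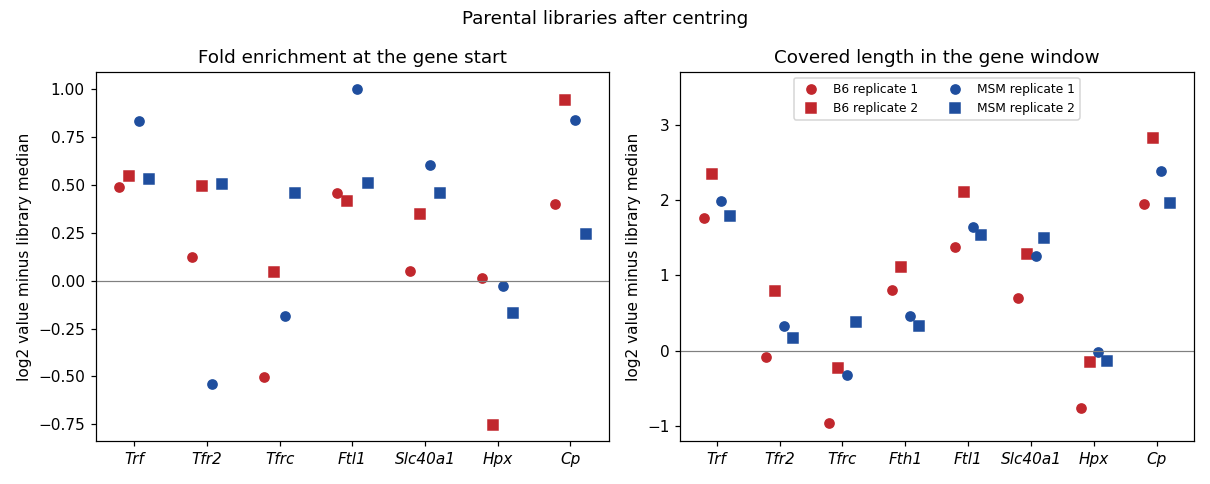
Centred log2 values of the members in the 4 parental libraries (B6 red, MSM blue), for fold enrichment at the gene start (left) and covered length (right), where 0 is the library's median over the genes fitted. Most members overlap between strains. Fth1 has both B6 points above both MSM points in covered length, and Ftl1 and Slc40a1 in fold and Hpx in covered length have both MSM points above both B6 points.

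Counted by region in the 4 parental lists, 2 of 25 member regions had a peak in both B6 libraries and neither MSM library, the Hamp region at the gene start and the Cp intron region, against 3.29% of 25808 regions. The opposite pattern was found in none of the 25, against 3.38%. Regions in 1 strain only, in either direction, numbered 5 of 22 without B6 replicate 1 (28.0% of all regions) and 9 of 25 without B6 replicate 2 (33.0%), beside 6.67% with all 4 libraries. Of the other regions, 12 were in all 4 libraries and 7 in a single one, in each case B6 replicate 1.

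The members differed in promoter composition. The CpG counts were 30 at both starts of Tfrc, 27 at the second start of Fth1 and 20 at Ftl1, above the median of 7 over all entries. They were 4 at Hamp, 2 at Hamp2, 3 at Hpx, 2 and 4 at the starts of Cp, and 8, 5 and 6 at those of Tfr2. Trf and Slc40a1 are not in these counts. Among the members with few CpGs, covered length ran to both extremes, with Cp holding the longest covered length and Hamp and Hamp2 the shortest in the MSM livers.

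A wider list of 58 genes of iron and heme metabolism was examined beside the members. Of these, 33 (56.9%) had a peak at the gene start in all 6 libraries, beside 23.6% of all protein-coding genes. Among 20 genes of hepcidin signalling it was 13, including Tmprss6, the protease that restrains hepcidin expression (folds of 14.8 and 7.66 in B6, 8.85 and 9.50 in MSM, 8.79 in F1 BM and 7.0 in the F1 MB liver) and Il6ra, the interleukin 6 receptor. Bmp6, the iron-induced ligand made by sinusoidal endothelium, had no peak in any library, and Id1, a BMP target like Hamp, had one in B6 replicate 1 only (1862 bp covered). Smad7, a feedback inhibitor of BMP signalling, had 5265 and 1391 bp in B6 and 2435 and 2312 bp in MSM. Smad4, which joins the BMP-activated SMADs, had 835 bp in B6 replicate 1 and 0 bp in the other 5 libraries.

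In covered length, 11 of the 50 wider genes with a parental peak (22.0%) were higher in both B6 livers and 1 (2.0%) in both MSM livers, beside 11.6% and 4.97% of all genes. The median centred difference (MSM minus B6, log2) of the 42 genes fitted was 0.06, against 0.01 for all genes. These genes went both ways and not all of the 50 were fitted, so this median does not decide whether the list leans to B6. The smallest limma adjusted p among these 42 was 0.06. The one higher in MSM was Alas1, the rate-limiting enzyme of heme synthesis, with 4504 and 1532 bp in B6, 6570 and 5503 bp in MSM, 5886 bp in F1 BM and 3445 bp in F1 MB (log2 difference 1.27, limma adjusted p = 0.06). Alad, the next enzyme of heme synthesis, had the opposite order, with 3751 and 1626 bp in B6, 263 and 1293 bp in MSM, 1530 bp in F1 BM and 718 bp in F1 MB (log2 difference -2.0, limma adjusted p = 0.14). The others named by size of difference were Steap3, an endosomal ferrireductase (-1.42), Aco1, iron regulatory protein 1 (-1.18), Smad5, which transmits BMP signals (-1.09), Slc25a37, the mitochondrial iron importer mitoferrin 1 (-1.08), Lrp1, the receptor for heme-bound hemopexin (-1.04), and Hfe, the gene mutated in hereditary haemochromatosis (-0.69), none past the threshold.

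Marker genes bear on which cells the lists reflect. A peak at the start was present for 8 of 9 hepatocyte markers in each library and for 0 of 7 Kupffer cell markers in any. The remaining hepatocyte marker, Hnf4a, had no peak within 1 kb of its gene start. Its gene window nevertheless held between 7082 bp (B6 replicate 2) and 12851 bp (F1 BM) under peaks in every library. Endothelial markers had peaks in 5 and 0 of 7 in B6, 2 and 6 in MSM, 5 in F1 BM and 0 in F1 MB, stellate markers in 2 of 7 in F1 BM and 0 elsewhere, and erythroid markers in 1 of 9, Klf1, in each library. Endothelial counts thus varied within each strain and were 0 in the 2 shortest lists. The part of cell composition in the Hamp pattern was not tested.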

How the data were processed

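The authors fixed adult liver in formaldehyde, precipitated chromatin with an anti-H3K9ac antibody and sequenced it as 50-bp read pairs. Trim Galore, SAMtools and MACS2 are named in the submitters' processing notes. The notes name HISAT2 as the aligner and the methods Bowtie 2, and versions, MACS2 settings and the use of inputs as control are not given in the sources used here. The deposited lists (mm10, 1 per library, replicates not pooled) give for each peak the fold enrichment (a ratio over background), the −log10 p and −log10 q, a score and the summit distance, as the authors' peak caller wrote them. Their lowest −log10 q lay between 1.30 and 1.35. The 6 input libraries were not analysed here.

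Peaks were compared by position (overlap of at least 1 bp) with Python 3.11.15, numpy 2.4.6, pandas 2.3.3 and scipy 1.17.1, and drawn with matplotlib 3.10.9. For limma 3.58.1 (R 4.3.3), log2 values were centred on each library's median, fitted with trended moderation over all genes with a value in the 4 parental libraries, and adjusted by the Benjamini-Hochberg method, threshold 0.05. Single values were compared by two-sided exact permutation over the 6 assignments of the 4 libraries. The functions were tested on simulated data. Promoter sequences are from RefSeq (GRCm38.p6). Uniqueness was counted over the assembled chromosomes and the unplaced C57BL/6J contigs. All members are named. From the wider list, genes past the threshold were to be named and then those with the largest differences among non-overlapping ones, up to 8, with others chosen for their role after values were seen. Members and lists were chosen with earlier results of these data known.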

Additional observations from a re-analysis of the deposited data

How the results depend on the processing

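Leaving out each parental library, other list sizes, thresholds, windows, overlaps, centring and low-value filters were tried. No member that entered a limma fit was called under any of these settings. Hamp and Hamp2, without MSM peaks, entered no fit, and Tfrc had no fitted value with the same covered length in every library. Of the alternative values for member differences, apart from the replicate block, which leaves the estimates as they are in this balanced design, 168 kept their direction and 9 reversed. In fold at the start, with 1 library left out, Tfr2 ranged from -0.85 (without MSM replicate 2) to 0.20 (without MSM replicate 1), Hpx from -0.11 (without B6 replicate 2) to 0.66 (without B6 replicate 1), and Cp from -0.43 (without MSM replicate 1) to 0.17 (without MSM replicate 2), with 0.14 without B6 replicate 2. With a window of 500 bp, Slc40a1 became -0.055 and Tfr2 moved from -0.32 to -1.1. An annotated transcript start of each of these genes lies outside that window. In covered length, from without B6 replicate 1 to without B6 replicate 2, Trf ranged from -0.46 to 0.13, Tfr2 from -0.54 to 0.34, Ftl1 from -0.51 to 0.21 and Cp from -0.65 to 0.22. Trf moved from -0.16 to -0.84 with the same number of peaks and to -0.78 with the same covered length. Members higher in B6 than MSM in covered length, without overlap, numbered 4 of 9 with the same number of peaks (19.3% of all genes) and 4 of 9 with the same covered length (15.6%), and 2 to 7 with 1 library left out, where the shares over all genes were 13.2 to 84.2%. Those higher in MSM numbered 1 (8.87%) and 2 (17.5%) under these list sizes and 0 to 3 with 1 library left out (5.03 to 61.2%). Member regions in 1 strain only numbered 1 of 15 with the same covered length (9.03% of all regions), 1 of 25 when a peak had to cover 50% of the region (7.58%), and 2 to 9 with 1 library left out (13.7 to 33.0%). Over all genes, the calls on fold went from 0 to 18 without MSM replicate 1 and 3 without MSM replicate 2, and those on covered length from 31 to 0 without either B6 library or at equal list size, 6 with no centring and 7 with quantile normalisation. The causes were not tested. The deviations of same-numbered B6 and MSM replicates had a correlation over genes of -0.02 in both measures. This cannot show whether such replicates were handled together, and the labels do not say. With the replicate block 13 genes were called on fold and 160 on covered length, with 0 members in each. The lists hold no depth, so weak peaks limit each absence reported.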
